A study of Homo sapiens with 3 samples.

Results

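A set of 9 genes of the MHC class I antigen presentation pathway was examined in the RNA-Seq data of gemcitabine-resistant and parental 5637 cells. They were chosen by name from the 29960 genes of the deposited table, and all 9 were found. They comprise the heavy chains HLA-B, HLA-C and HLA-E, the light chain B2M, the peptide transporter subunits TAP1 and TAP2, the loading factor TAPBP, and the immunoproteasome subunits PSMB8 and PSMB9. 5637 is an established human bladder cancer line. The parental group held cells of that line with the genotype given as WT. The resistant group, with the genotype given as Gemcitabine Resistant, held a derivative of that line. Gemcitabine is a deoxycytidine analog that stops DNA synthesis. By the methods the derivative was selected in rounds of rising exposure with recovery between them and then kept without the drug, whereas the labels call the treatment that made it acute. The labels give every library as untreated, and both groups grew in RPMI medium with serum. By the study's methods each library came from a single-cell clone, so a group shows clones of 1 line and not separate patients. Of the libraries with a label, 1 was parental and 2 were resistant, with 14475531, 15836788 and 17461941 reads counted on genes.

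A class I molecule consists of a heavy chain, beta-2-microglobulin and a short peptide, and shows the peptides of a cell's own proteins to cytotoxic T cells. The proteasome cuts the proteins, the TAP1-TAP2 pump carries the peptides into the endoplasmic reticulum, and tapasin, the product of TAPBP, helps to load them. Interferons induce most of these genes, and NLRC5 is their dedicated transactivator. Tumors, bladder tumors included, are known to lose parts of the pathway and thereby escape T cells.

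The regulatory sequence in front of 4 of the genes is shown because interferons are known to induce such genes through short elements before the start. The 200 bases before the gene start are given for a heavy chain pair, for the light chain and for the transporter gene that shares its promoter region with PSMB9. They are RefSeq sequences of GRCh38.p14, read on the coding strand, at chr6:31357180-31357379 (minus strand), chr6:31272093-31272292 (minus), chr15:44711317-44711516 (plus) and chr6:32853705-32853904 (minus). Capitals mark matches on either strand to an interferon-stimulated response element (GAANNGAAA, or a longer form read as GAAA, 2 free bases and GAAA), the interferon-gamma site GAS (TTCNNNGAA), a kappaB site (GGG, 2 free bases, TT, 1 free base and CC) or the Y box (ATTGG), and neighbouring matches may overlap.
HLA-B: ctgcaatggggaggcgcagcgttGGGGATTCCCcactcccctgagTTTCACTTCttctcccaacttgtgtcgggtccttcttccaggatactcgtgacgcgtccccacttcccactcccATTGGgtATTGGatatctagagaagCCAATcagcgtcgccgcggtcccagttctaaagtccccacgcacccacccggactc
HLA-C: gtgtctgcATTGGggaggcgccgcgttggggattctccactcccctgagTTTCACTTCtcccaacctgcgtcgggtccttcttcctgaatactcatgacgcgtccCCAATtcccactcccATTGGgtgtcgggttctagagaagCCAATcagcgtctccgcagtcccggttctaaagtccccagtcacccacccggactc
B2M: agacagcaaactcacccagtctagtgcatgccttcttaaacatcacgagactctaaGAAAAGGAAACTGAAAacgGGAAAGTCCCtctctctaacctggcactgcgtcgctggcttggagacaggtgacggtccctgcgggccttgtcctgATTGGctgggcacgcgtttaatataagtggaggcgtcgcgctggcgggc
TAP1: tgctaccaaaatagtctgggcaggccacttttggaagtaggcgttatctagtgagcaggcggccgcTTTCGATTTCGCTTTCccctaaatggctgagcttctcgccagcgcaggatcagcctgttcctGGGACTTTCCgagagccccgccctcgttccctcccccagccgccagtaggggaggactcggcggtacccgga

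Promoter windows from 250 bases before to 50 bases after the start were available for 8 of the 9 genes, with HLA-E as the exception. At least 1 form of the interferon-stimulated element was written in HLA-B, HLA-C, B2M, TAP1, TAP2, TAPBP and PSMB8. The form GAANNGAAA was found in 4 of the 8 genes, against 7.66% of all 35116 windows, and the longer form, searched after the windows had been seen, in 5 of the 8, against 3.57%. A kappaB match stood before HLA-B, B2M, TAP1 and TAPBP (5.68% of all windows). A Y box match stood before HLA-B, HLA-C, B2M, TAP1 and PSMB9 (34.6% of all windows), and a GAS match before PSMB8 and in the window of another listed start of TAP1, not the one printed (7.66%). HLA-B and HLA-C carry the interferon-stimulated element at positions -155 and -151 from the start, in the same letters. Members were counted by gene, and TAP1 had 2 windows, whereas the shares of all windows were counted by window. The matches describe these windows and show neither binding nor a cause.

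For all 9 genes both resistant libraries stood above the parental library, but none of the differences passed the test. That order of the libraries was shared by 35.2% of the 14846 genes tested. The reads were expressed as CPM, counts relative to a fixed library total after TMM scaling, and groups were compared by edgeR's quasi-likelihood test with Benjamini-Hochberg adjustment over all genes tested. In this test 0.525% of all genes had an adjusted p under 0.05, and 0 of the 9 did. An unadjusted p under 0.05 was reached by 2 of them, HLA-C and TAP1, against 9.62% of all genes, and DESeq2, which called 1.67% of all genes, called 0 of the 9, with 1 at an unadjusted p under 0.05. The median log2 fold change of the 9 was 0.81, against 0.03 over all genes tested. For 6 of the 9 (HLA-C, HLA-E, TAP1, TAP2, TAPBP and PSMB9) the nearer resistant library stood further from the parental library than the resistant libraries stood from each other, a pattern seen, with the resistant libraries higher, in 19.0% of all genes. The lone parental library was assumed to vary like the resistant libraries, since it has no replicate here. In bulk RNA, fewer cells that express a gene and less RNA per cell cannot be told apart.

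**Figure D1:**
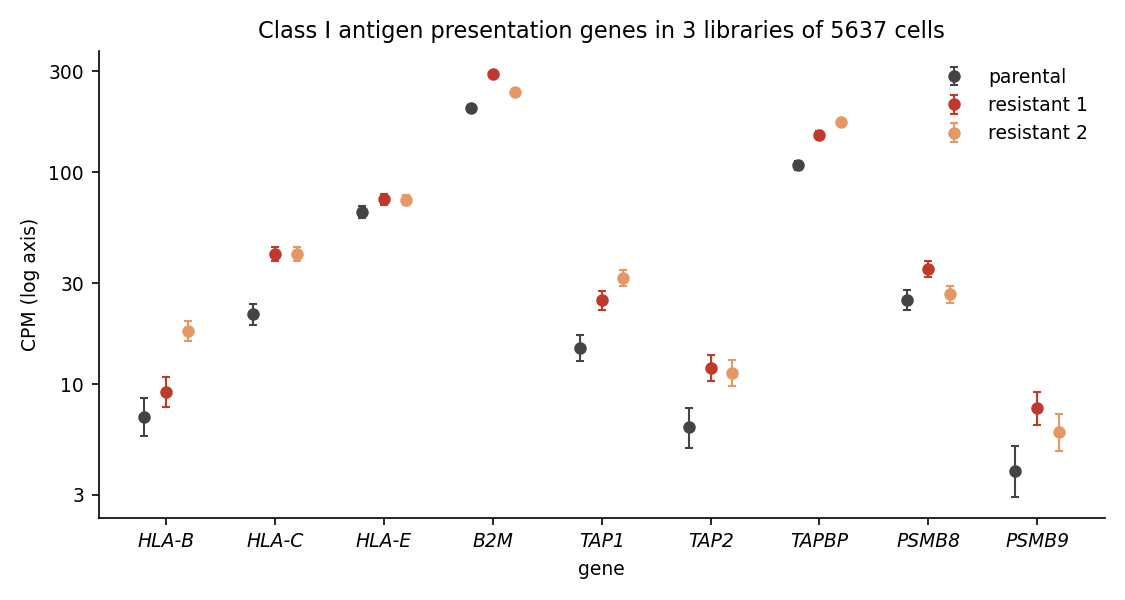
CPM (log axis) of each of the 9 genes in the parental library and the 2 resistant libraries. Points are single libraries, and bars are 95% exact binomial intervals of the read counts, which cover counting error only. The parental point is the lowest for every gene, from 3.90 CPM for PSMB9 to 201 CPM for B2M.

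The authors also deposited a mean of normalized counts per group, which by the study's design covers 3 clones per group and includes the labelled libraries. By these means the groups were nearly level: the median log2 ratio of the 9 genes, after a pseudocount of 1, was 0.04, against 0.01 over the 14630 genes with a mean of at least 10. Of the 9 genes, 7 were higher in the resistant group and 2, B2M and PSMB9, were lower, where 51.4% of all such genes were higher. The means carry no error, so these ratios have no test.

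**Figure D2:**
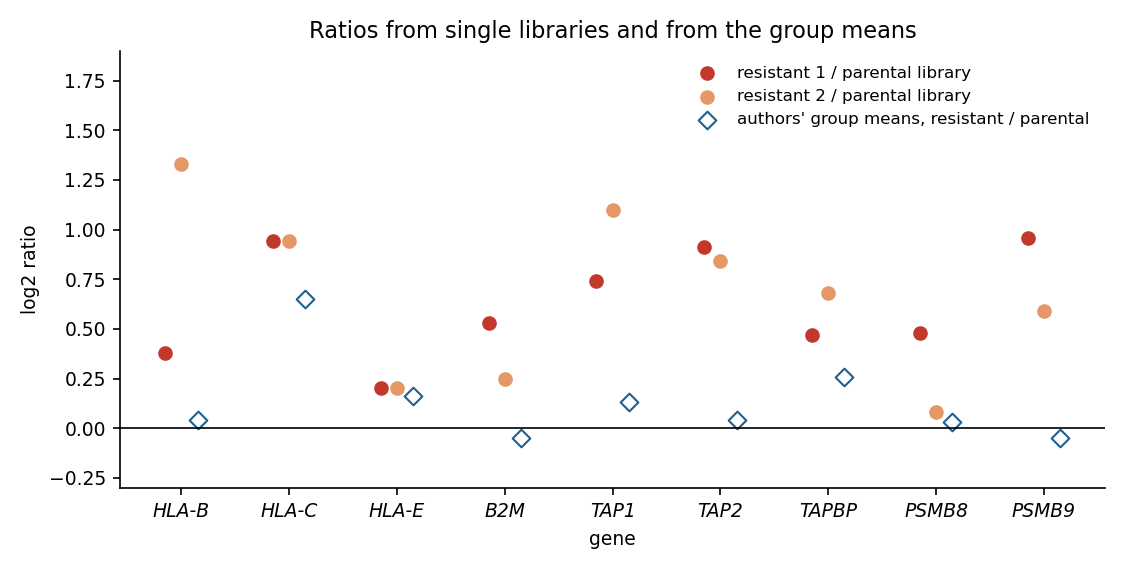
Log2 ratio of resistant to parental for each gene. Filled points set each resistant library against the parental library, after the same small prior count was added to each, and open diamonds set the authors' group means against each other. The filled points are all above 0, whereas the diamonds run from -0.05 to 0.65, with HLA-C highest.

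Among the classical heavy chains, which bind the peptide, HLA-C (ENSG00000204525, chromosome 6, 31236526 to 31239907, in the hg19 coordinates named in the processing notes) was measured at 21.4 CPM in the parental library, against 41.3 CPM in resistant library 1 and 41.2 CPM in resistant library 2, from 302, 675 and 715 reads. The resistant libraries were almost level with each other and well above the parental library. The log2 fold change was 0.95 ± 0.36 (SE), or 1.93-fold, and the adjusted p was 0.444 (edgeR; unadjusted, 0.0294). By the authors' means HLA-C had the largest ratio of the 9. They were 322.6 in the parental and 505.1 in the resistant group, a log2 ratio of 0.65.

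HLA-B (ENSG00000234745, chromosome 6, 31321649 to 31324965) was read at 7.02 CPM in the parental library, against 9.18 CPM in resistant library 1 and 17.8 CPM in resistant library 2. Resistant library 2 stood apart, and the gap between the resistant libraries, 0.95 on the log2 scale, exceeded the 0.38 between resistant library 1 and the parental library. The fitted log2 fold change equalled that of HLA-C at 0.95, but with an SE of 0.53 and an adjusted p of 0.654 (edgeR). It came to 1.35 without resistant library 1 and to 0.39 without resistant library 2. The authors' means of HLA-B were 171.3 and 175.6 in the parental and resistant group, a log2 ratio of 0.04.

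HLA-E, the nonclassical chain that NK cells recognize through CD94-NKG2A, had the smallest fitted fold change of the 9 (ENSG00000204592, chromosome 6, 30457244 to 30461982). Its values were 64.8 CPM in the parental library and 74.7 and 74.3 CPM in the resistant libraries. The resistant libraries were again level, and the log2 fold change was 0.20 ± 0.33 (SE; adjusted p = 0.938, edgeR). The authors' means gave 0.16, the third-largest ratio of the 9 on that scale.

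B2M, the light chain that every class I molecule needs to reach the surface, was the highest of the 9 both in CPM and per length in FPKM (ENSG00000166710, chromosome 15, 45003675 to 45011075). It was measured at 201 CPM in the parental library, against 290.1 CPM in resistant library 1 and 239 CPM in resistant library 2. Resistant library 2 lay nearer to the parental library than to resistant library 1. The log2 fold change was 0.40 ± 0.36 (SE; adjusted p = 0.844, edgeR). It came to 0.25 without resistant library 1 and to 0.53 without resistant library 2. By the authors' means B2M was slightly lower in the resistant group, at 3647.1 against 3775.6, a log2 ratio of -0.05. B2M supplied much of the summed CPM of the 9 genes, which was 452 in the parental library and 644 and 622 in the resistant libraries.

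The transporter genes were higher in the resistant libraries by similar amounts. TAP1 (ENSG00000168394, chromosome 6, 32812986 to 32821755) was read at 14.8 CPM in the parental library, against 24.9 CPM in resistant library 1 and 31.8 CPM in resistant library 2. The log2 fold change was 0.94 ± 0.39 (SE), and the adjusted p was 0.498 (edgeR; unadjusted, 0.0424). TAP2 (ENSG00000204267, chromosome 6, 32789610 to 32806557) was read at 6.24, 11.9 and 11.3 CPM in the same order, a log2 fold change of 0.89 ± 0.45 (SE; adjusted p = 0.603, edgeR). Both subunits are needed for the pump, and for both the parental library was the lowest of the 3. The authors' means were closer, with log2 ratios of 0.13 for TAP1 and 0.04 for TAP2.

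TAPBP (ENSG00000231925, chromosome 6, 33267471 to 33282164), whose product tapasin holds empty class I molecules at the transporter, gave 108 CPM in the parental library and 149.6 and 173 CPM in the resistant libraries. The values rest on 1522 to 3009 reads, and the parental library was the lowest. The log2 fold change was 0.58 ± 0.36 (SE; adjusted p = 0.692, edgeR), and the authors' means gave 0.26, the second-largest ratio among the 9 after HLA-C.

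The immunoproteasome subunits replace constitutive subunits of the proteasome and alter which peptides it makes. PSMB9 (ENSG00000240065, chromosome 6, 32811913 to 32827362) was read at 3.90 CPM in the parental library, against 7.71 CPM in resistant library 1 and 5.93 CPM in resistant library 2, from 55, 126 and 103 reads. Its log2 fold change was 0.81 ± 0.52 (SE; adjusted p = 0.717, edgeR), and the authors' means were 87.6 in the parental and 84.5 in the resistant group, a log2 ratio of -0.05. PSMB8 (ENSG00000204264, chromosome 6, 32808494 to 32812480) was read at 25.0 CPM in the parental library, against 35.0 CPM in resistant library 1 and 26.5 CPM in resistant library 2. Resistant library 2 was thus close to the parental library, and the log2 fold change was 0.30 ± 0.38 (SE; adjusted p = 0.908, edgeR). It came to 0.08 when resistant library 1 was left out and to 0.48 when resistant library 2 was. The authors' means of PSMB8 were 366.9 and 375.9 in the parental and resistant group, a log2 ratio of 0.03. PSMB9 as listed overlaps TAP1 and PSMB8 on the opposite strand. Whether counting used the strand is not given in the sources used here, so reads of these 3 genes may not be cleanly separated. The RefSeq starts of TAP1 and PSMB9 lie 488 bases apart and face away from each other.

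Counting error was set beside these differences, which are differences between clones. For HLA-C, HLA-E, B2M, TAP1, TAP2 and TAPBP, 6 of the 9, the 95% interval of the parental read count (exact Clopper-Pearson) lay below the intervals of both resistant libraries, as it did for 13.9% of all genes tested. Such intervals leave out the spread between clones. For HLA-B the parental interval of 5.70 to 8.55 CPM overlapped that of resistant library 1, 7.77 to 10.8 CPM. For PSMB9 it reached from 2.94 to 5.08 CPM and overlapped that of resistant library 2, 4.84 to 7.19 CPM. For PSMB8 the parental interval of 22.5 to 27.8 CPM overlapped that of resistant library 2, 24.2 to 29.1 CPM. The spread between parental clones could not be measured, since 1 parental library had a label here and the columns without one were not used.

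The labelled parental library was itself low in these genes against the authors' parental mean. With the mean scaled to CPM, 7 of the 9 genes were lower in the library than in the mean, as were 45.2% of all genes tested. TAP1 stood at 14.8 CPM in the library and at 21.0 CPM in the authors' mean, HLA-B at 7.02 and 11.6, and B2M at 201 and 256. TAP2 stood at 6.24 and 9.52 and PSMB9 at 3.90 and 5.95. The median log2 ratio of library to mean was -0.35 for the 9 genes and 0.02 for all genes tested. HLA-C, at 21.4 and 21.9, HLA-E, at 64.8 and 61.2, and PSMB8, at 25.0 and 24.9, were close to the mean. The authors' resistant mean, scaled likewise, was below both labelled resistant libraries for HLA-C, HLA-E, TAP1, TAP2, TAPBP, PSMB8 and PSMB9. For HLA-C it was 34.7 CPM, against 41.3 and 41.2 CPM in resistant libraries 1 and 2. For HLA-B, at 12.1 CPM, and B2M, at 251 CPM, the resistant mean fell between those libraries. How much each group adds to the gap between libraries and means was not tested. These comparisons were made after the group means had been seen.

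Per transcript length, B2M stood highest in every library, at 84.2 FPKM (reads scaled for gene length and depth, as deposited) in the parental library and at 129 and 102 FPKM in the resistant libraries. TAPBP came next, at 28.0, 41.1 and 45.8 FPKM in the same order, followed by HLA-E at 24.3, 29.6 and 28.4 FPKM. PSMB8, at 18.1 to 26.7 FPKM, and HLA-C, at 11.1 to 22.7 FPKM, changed places between resistant libraries 1 and 2. TAP1 (4.88 to 10.7 FPKM) and HLA-B (4.42 to 11.5 FPKM) did so as well. PSMB9, at 1.42 to 2.97 FPKM, and TAP2, at 1.07 to 2.16 FPKM, were lowest in every library. The ranges over the libraries overlapped between neighbours in this order except between B2M and TAPBP, between HLA-C and TAP1, and between HLA-B and PSMB9. In the parental library the B2M level exceeded that of 95.4% of the genes tested, HLA-B that of 41.9% and TAP2 that of 17.5%.

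Of the 9 genes, 8 lie on chromosome 6 in a span of 2.82 Mb from HLA-E to TAPBP, and B2M lies on chromosome 15. The span held 75 other genes that were tested, and 0 of them were called by edgeR, with 3 at an unadjusted p under 0.05. Both resistant libraries were above the parental library for 33 of the 75, or 44.0%, and for 261 of the 644 tested genes of chromosome 6 outside the span, or 40.5%. The median log2 fold change was 0.85 for the 8 members, 0.17 for the other genes of the span and 0.09 for the rest of the chromosome. By the authors' means these medians were 0.08, 0.15 and 0.09. The neighbours with the highest CPM were TUBB, a tubulin gene (1886 CPM in the parental library, 1810.0 CPM in resistant library 1 and 1661 CPM in resistant library 2), PRRC2A, and RPS18, a ribosomal protein gene. Their log2 fold changes were -0.12 for TUBB, 0.07 for PRRC2A and -0.23 for RPS18.

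**Figure D3:**
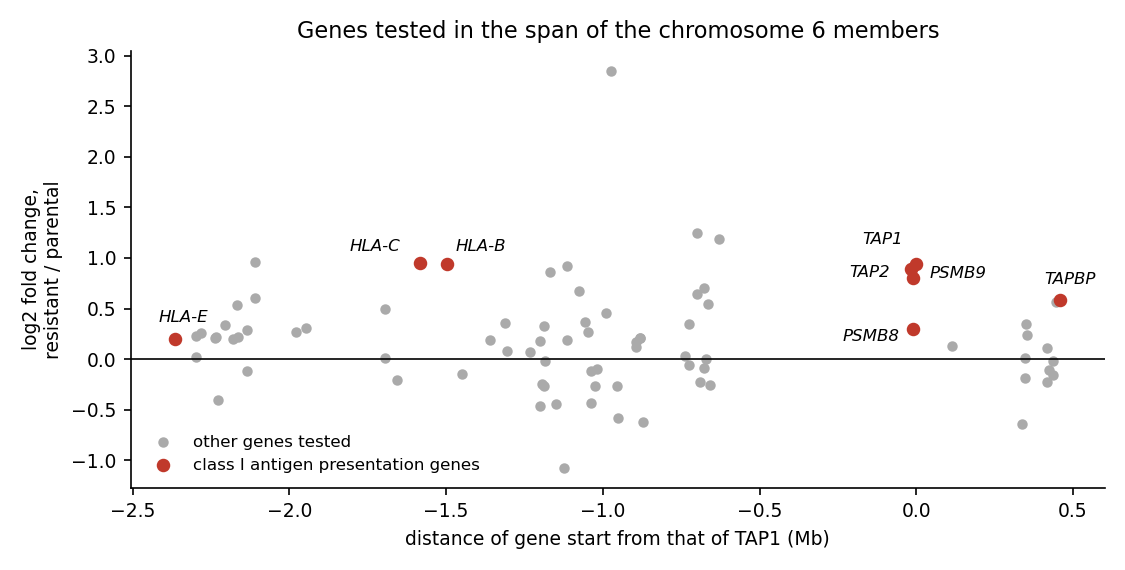
Fitted log2 fold change of resistant over parental (vertical axis) against the distance of a gene's start from that of TAP1 in Mb (horizontal axis), for the 8 members on chromosome 6 and the 75 other genes tested between them. The members lie between 0.20 and 0.95, and the other genes spread to both sides of 0 with a median of 0.17.

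Further class I and class I-like heavy chains were described from a list. Of 10 listed genes 9 were in the table and 6 were tested, and 0 of the 6 were called by edgeR, with 2 at an unadjusted p under 0.05. MR1, which presents vitamin B metabolites to MAIT cells, was read at 8.65 CPM in the parental library, against 36.9 CPM in resistant library 1 and 33.8 CPM in resistant library 2. Its log2 fold change was 2.03 ± 0.40 (SE), with an adjusted p of 0.0836 by edgeR, and the authors' means gave a smaller ratio, 1.52. MR1 passed with DESeq2 (adjusted p = 0.00293) and with edgeR without the filter on low counts (0.00158), but not with edgeR under RLE size factors (0.0537) or at a mean count of at least 50 (0.0521). MICB, a stress ligand of NK cells, was at 27.4, 41.9 and 20.8 CPM, and FCGRT, the neonatal Fc receptor chain, at 21.5, 13.6 and 23.4 CPM, in the order parental, resistant 1 and resistant 2. Both had resistant libraries on either side of the parental library. Class I genes resemble each other and their pseudogenes, and reads can be split among them. Of the pseudogenes HLA-H was read at 0.922, 1.96 and 2.07 CPM and HLA-K at 0.709, 1.53 and 1.21 CPM in the same order. How far the alleles of 5637 match the reference used for counting was not tested.

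Peptide trimming and loading in the endoplasmic reticulum was represented by 11 tested genes, of which 1 fell and 0 rose (edgeR, adjusted p under 0.05; 0.391% of all genes tested fell and 0.135% rose). The gene that fell was ERAP2, an aminopeptidase that shortens peptides for class I. It was measured at 31.2 CPM in the parental library, against 3.49 CPM in resistant library 1 and 3.91 CPM in resistant library 2, from 440, 57 and 68 reads. Both resistant libraries were far below the parental library and close to each other. The log2 fold change was -3.07 ± 0.40 (SE; adjusted p = 0.0181, edgeR), and ERAP2 was 8.41-fold lower. By the authors' means it was at 456.0 in the parental and 149.0 in the resistant group, a smaller log2 ratio of -1.61. The 8.41-fold difference thus holds for the labelled libraries and not for the group means. The abundant chaperones of the loading complex did not pass the test. CALR was at 734, 577 and 763 CPM, PDIA3 at 201, 210.4 and 168 CPM, and CANX at 781, 809 and 748 CPM, in the order parental, resistant 1 and resistant 2. HSPA5, the general chaperone of the compartment, was at 1033, 970.1 and 1246 CPM. The median log2 fold change of the list was -0.16.

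Of the other proteasome subunits and activators 20 were tested and 0 were called by edgeR, with 0 at an unadjusted p under 0.05. Their median log2 fold change was -0.04, and the parental library lay between the resistant libraries for 11 of the 20. PSMA7, a subunit of the outer ring, was at 479, 547 and 377 CPM in the order parental, resistant 1 and resistant 2, and PSMB4 at 191, 249 and 168 CPM. The activator gene PSME3 was at 329, 349 and 313 CPM, and the constitutive catalytic subunit PSMB7 at 272, 267 and 161 CPM.

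The factors that control transcription of class I genes formed a list of 18, all tested. None was called by edgeR, 1 had an unadjusted p under 0.05, and their median log2 fold change was 0.05. That gene was NLRC5, the class I transactivator, which is named here after its values were seen. It was read at 5.10 CPM in the parental library, against 21.1 CPM in resistant library 1 and 22.0 CPM in resistant library 2, from 72, 344 and 383 reads. The log2 fold change was 2.08 ± 0.44 (SE), or 4.22-fold, and the adjusted p was 0.107 by edgeR. NLRC5 passed with DESeq2 (adjusted p = 0.0102) and in edgeR without the filter (0.00455), but not in edgeR with RLE size factors (0.0742) or at a mean count of at least 50 (0.0768). The authors' means of NLRC5 were 118.2 in the parental and 244.8 in the resistant group, a smaller log2 ratio of 1.04. The 4.22-fold difference thus describes the labelled clones only, and the unlabelled ones were not analysed. The abundant members of the list had smaller differences. NFKB2, an NF-kappaB subunit, was at 64.9, 85.3 and 154 CPM in the order parental, resistant 1 and resistant 2, and RELA at 177, 147 and 149 CPM. The coactivator genes CREBBP and EP300 had log2 fold changes of 0.09 and -0.39. Of the 5 Polycomb genes listed, whose complex can silence class I genes, 0 were called by edgeR, with 0 at an unadjusted p under 0.05. EZH2, the catalytic subunit, was at 139, 116 and 106 CPM.

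**Figure D4:**
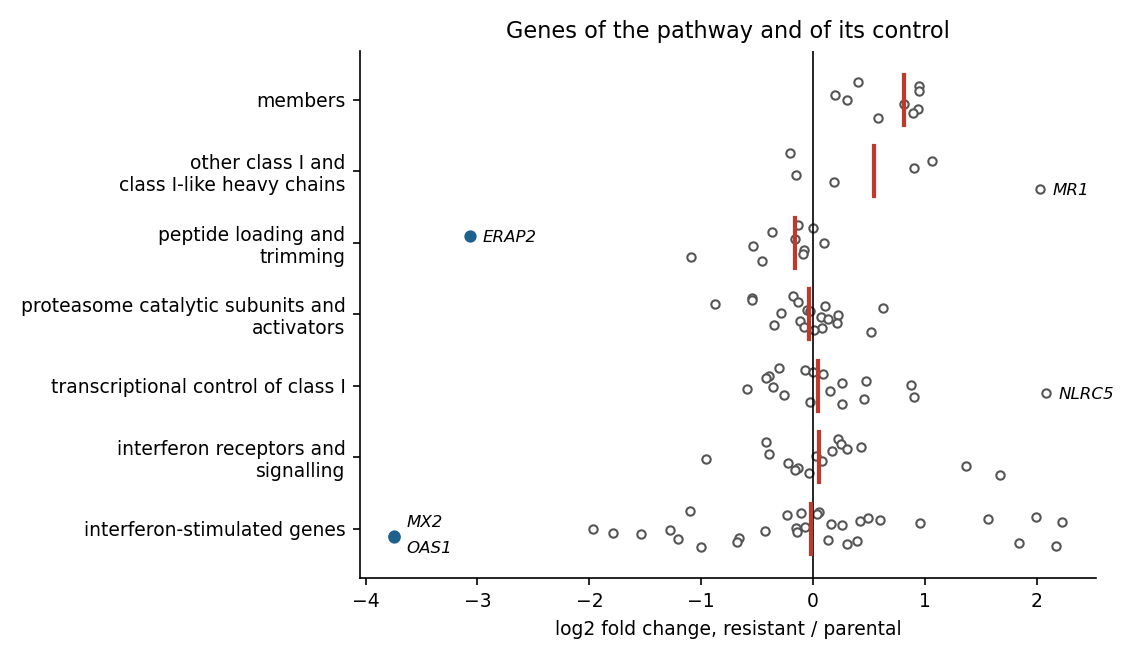
Fitted log2 fold change of resistant over parental (horizontal axis) for each tested gene of the 9 members and of 6 further lists. Filled points had an adjusted p under 0.05 in edgeR's test, open points did not, and red bars are list medians. GBP1, with no read in the parental library, is left out of the points. The members lie to the right of 0, the filled points, ERAP2, OAS1 and MX2, lie below -3, and MR1 and NLRC5 are open points at 2.03 and 2.08.

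Interferon genes themselves were barely read. Of the 6 ligand genes found, 4 had 3 reads or fewer in every library, and they are named after their values were seen. IFNG and IFNL2 had no read in any of the 3 libraries, IFNB1 and IFNL1 had at most 1, and a count of 0 allows up to 3 reads, or 0.213 CPM in the parental library and 0.184 and 0.173 CPM in the resistant libraries. IFNE, an epithelial interferon, had the highest CPM at 1.77, 0.551 and 0.864 CPM in the order parental, resistant 1 and resistant 2. Of the 16 receptor and signalling genes 0 were called by edgeR, with 3 at an unadjusted p under 0.05, and their median log2 fold change was 0.06. The kinase genes JAK1 and TYK2 were at 119, 131 and 112 CPM and at 229, 143 and 304 CPM, and the receptor gene IFNAR1 at 65.9, 85.4 and 68.0 CPM, in the order parental, resistant 1 and resistant 2. For JAK1 and TYK2 the parental library lay between the resistant libraries.

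Of 34 tested interferon-stimulated genes outside the 9, 2 fell and 0 rose (edgeR), where 0.391% of all genes tested fell and 0.135% rose. An unadjusted p under 0.05 was reached by 5 higher and 9 lower genes of the list, against 9.62% of all genes in either direction. Of the 34, 13 were higher and 13 lower in both resistant libraries, as were 35.2% and 34.5% of all genes, and the median log2 fold change was -0.02. OAS1, which makes the activator of RNase L, fell from 50.5 CPM to 3.98 and 3.51 CPM, a log2 fold change of -3.75 ± 0.38 (SE; adjusted p = 0.00568, edgeR). MX2, an antiviral GTPase, fell from 9.71 CPM to 0.734 and 0.691 CPM, a log2 fold change of -3.75 ± 0.55 (SE; adjusted p = 0.0283, edgeR). The authors' means gave log2 ratios of -3.54 for OAS1 and -2.73 for MX2. OAS3 was at 281, 137 and 106 CPM and ISG15 at 47.9, 57.2 and 29.9 CPM in the order parental, resistant 1 and resistant 2, and neither passed the test. EIF2AK2 and SAMD9 had log2 fold changes of -0.11 and -0.68. Without the filter on low counts edgeR also called GBP1 and HERC5 higher, with adjusted p of 0.00046 and 0.0196, both named after their values were seen. GBP1, a guanylate-binding GTPase, had 0, 43 and 11 reads in the order parental, resistant 1 and resistant 2. With the parental library set at a floor of 3 reads, the mean CPM of the resistant libraries was at least 7.66-fold higher. Resistant library 2 alone, at 0.633 CPM, stood nearer to that floor of 0.213 CPM.

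The epithelial identity of the libraries was checked with keratin and adhesion genes. KRT19 was read at 4303, 3594 and 4783 CPM in the order parental, resistant 1 and resistant 2, KRT7 at 1986, 1048 and 868 CPM, KRT8 at 2269.5, 1667 and 1014 CPM, and CDH1 at 340.0, 398 and 320.4 CPM. Of 10 tested epithelial markers 2 fell (edgeR, where 0.391% of all genes tested fell). The basal keratin KRT5 fell from 271 CPM to 9.79 and 13.8 CPM (adjusted p = 0.00223, edgeR). The uroplakin gene UPK1B had 74 reads in the parental library and 0 in both resistant libraries. With each resistant library set at a floor of 3 reads, their mean was at least 29.4-fold lower. The authors' means gave smaller log2 ratios, -2.49 for KRT5 (11543.7 in the parental and 2047.2 in the resistant group) and -1.73 for UPK1B (70.1 and 20.4), so UPK1B was not at 0 in the resistant group mean. Leukocyte markers, which would accompany class I RNA of immune cells, summed to 0.922 CPM in the parental library and to 2.08 and 1.44 CPM in the resistant libraries over the 6 of 7 genes in the table, with CD14 at 0.213, 0.734 and 1.04 CPM and PTPRC at 0.284, 0.184 and 0.115 CPM. Stromal markers summed to 173, 155 and 146 CPM, nearly all of it from COL1A1 and COL1A2, while PDGFRB was at 0.142, 0.245 and 0.115 CPM and COL3A1 had at most 2 reads in a library. The part of other cell types in the results was not tested beyond these levels.

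Outside the lists 9558 genes averaged 10 CPM or more. The 5 whose 3 values were most like the median profile of the 9 genes were NDUFAF3, KRCC1, ATP6V1F, TBCK and PGM2, by the Euclidean distance of centred log2 CPM (pseudocount 1) over the 3 libraries. NDUFAF3, for example, was at 15.1 CPM in the parental library, against 25.3 CPM in resistant library 1 and 24.6 CPM in resistant library 2. A profile of 3 values is shared by many genes, and 834 of the 9558 were nearer to the median profile than the median member was.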

How the data were processed

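RNA of single-cell clones was sequenced for the authors by Novogene on an Illumina platform after capture on poly-T beads. The submitters' processing notes name hg19 and CASAVA 1.8, and the aligner, counter and annotation are not given in the sources used here. The authors deposited 1 table with a raw read count per gene and library, an FPKM value per gene and library, and a group signal, the mean of counts divided by a size factor. Its fold changes, p-values and adjusted p-values of the authors' own comparison were not used. A further 6 per-library columns, the counts and FPKM of 3 libraries named P2, P3 and R3 where the labelled ones are P1, R1 and R2, have no sample label here and were not used.

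Counts of the 3 labelled libraries were scaled by TMM (factors 0.974, 1.03 and 0.995), given as CPM and tested with edgeR 4.0.16 (R 4.3.3; glmQLFit, glmQLFTest) over genes with a mean count of at least 10, with 1 residual degree of freedom and a prior of 7.40. The SE was taken from the F value. DESeq2 1.42.0 was an alternative, and the steps were tested on simulated data. p-values measure the spread between these clones only. Intervals and the floor of 3 reads cover counting error only. The members and lists were chosen with earlier results of these data known. Genes named were the 9 members, and of each list those called (up to 6) and the 4 with the highest CPM. Of the neighbours in the span, those called and the 3 with the highest CPM were named. Promoters are from RefSeq. Some genes that this rule names are not reported here.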

Additional observations from a re-analysis of the deposited data

How the results depend on the processing

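No alternative called any of the 9 genes: 0 passed with DESeq2, with size factors of the RLE kind, without a filter on low counts, at a mean count of at least 50 and at an adjusted p under 0.10. Their median log2 fold change stayed between 0.79 and 0.82 under the other tools, scalings, filters and prior counts. It ranged from 0.53 to 0.68 when 1 resistant library was left out, which leaves 1 library against 1 and no test. It was 0.57 from the deposited FPKM (pseudocount 1). That pseudocount shrinks the ratios of low values, such as TAP2 at 1.07 FPKM in the parental library. From the group means the median was 0.04, and there B2M (-0.05) and PSMB9 (-0.05) had the opposite direction to the libraries. The cause was not tested. The median of the group means was 0.03 with a pseudocount of 10 or after centring. The number of genes called among all genes went from 78 (20 higher, 58 lower) to 145 with RLE size factors (46 higher, 99 lower), 169 at an adjusted p under 0.10, 248 with DESeq2 (122 higher, 126 lower) and 534 without a filter (273 higher, 261 lower), and was 113 at a mean count of at least 50 (48 higher, 65 lower). ERAP2, OAS1 and MX2 passed in each of these fits at 0.05. No paired analysis was possible because the paper describes the clones as independently derived, so a shared replicate number pairs nothing. The lone labelled parental library limits every comparison, and the spread between parental libraries was not analysed here, since the columns of the others have no sample label.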

Other observations

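The class II pathway and the ligands that meet T and NK cells were also read. Class II molecules, which present peptides from outside the cell, were nearly silent: 7 of the 11 genes found had 3 reads or fewer in every library. CTSS, the protease that trims the invariant chain, was at 1.84 CPM in the parental library, against 11.0 CPM in resistant library 1 and 10.4 CPM in resistant library 2, a log2 fold change of 2.53 ± 0.54 (SE; adjusted p = 0.112, edgeR). The authors' means of CTSS, 46.1 in the parental and 112.6 in the resistant group, gave a smaller log2 ratio of 1.27. The invariant chain gene CD74 was at 5.18, 2.82 and 7.14 CPM in the order parental, resistant 1 and resistant 2, and the groups overlapped.

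Of 13 tested NK-cell and checkpoint ligands 1 fell and 0 rose (edgeR), where 0.391% of all genes tested fell and 0.135% rose. LGALS9, the gene of galectin-9, fell from 8.01 CPM, or 113 reads, to 0.367 and 0.230 CPM, or 6 and 4 reads, with a log2 fold change of -4.71 ± 0.63 (SE; adjusted p = 0.0198, edgeR). The authors' means of LGALS9, 97.0 and 7.6, gave -3.51. CD276, a B7 family ligand, was at 226, 179 and 202 CPM and CD47, which restrains phagocytosis, at 55.7, 60.0 and 50.7 CPM in the order parental, resistant 1 and resistant 2. PVR and PVRL2, ligands of DNAM-1, had log2 fold changes of 0.30 and 0.20. VCP, an ATPase of protein degradation, was at 574, 330.1 and 238 CPM in the same order, with an adjusted p of 0.414 (edgeR).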
